A study of Mus musculus with 9 samples.

Results

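The stefins and cystatins examined in splenic myeloid-derived suppressor cells (MDSCs) were 8 genes of the cystatin superfamily, chosen by their symbols among the 23284 gene symbols of the expression files. They were 6 stefin A genes (Stfa1, Stfa2, Stfa2l1, Stfa3, Gm5483 and BC100530), the stefin B gene Cstb and the cystatin C gene Cst3, and all 8 were found. The 6 stefin A genes were abundant in PMN-MDSCs, with a summed level of 1315 ± 249 FPKM (SD, n = 3), and close to absent in WT Mo-MDSCs, at 7.50 ± 5.50 FPKM, whereas Cstb and Cst3 stood at similar levels in both subsets. Between the Mo-MDSCs of p16/p21-DKO and WT mice none of the 4 genes that could be tested was called (limma, adjusted p below 0.05), beside 0.253% of all genes tested.

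Stefins and cystatins are reversible, tight-binding inhibitors of papain-like cysteine proteases such as the lysosomal cathepsins. Stefins lack a signal peptide and act in the cytosol and nucleus, and the mouse has a tandem family of stefin A genes that are known as neutrophil and epidermal transcripts. Stefin B is made by most cells, and cystatin C is a secreted inhibitor made by many tissues, with high expression in mononuclear phagocytes and dendritic cells. The inhibitory surface of a stefin or cystatin includes a conserved hairpin loop that reads glutamine, any residue, valine, any residue, glycine.

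The samples were 9 RNA-sequencing libraries from MDSCs of the spleens of mice bearing spindle cell tumours (SCT), a tumour line that itself comes from a p16-deficient mouse. They formed 3 groups of 3. PMN-MDSCs, the neutrophil-like subset, and Mo-MDSCs, the monocyte-like subset, came from WT mice of the C57BL/6J strain, and a second set of Mo-MDSCs came from p16/p21-DKO mice labelled C57BL/6, which lack both cell cycle inhibitors in the whole animal. PMN-MDSCs were isolated by magnetic columns as Ly6G+ cells and Mo-MDSCs as the Gr-1+ cells left after their removal. The labels give an age of 3 weeks, while the methods describe adult mice collected 3 weeks after tumour inoculation. Nothing states whether samples of a group came from separate mice, so p-values measure only the spread between these samples. PMN-MDSCs of DKO mice were not analysed here.

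Expression is in FPKM, fragments scaled to transcript length and to the reads of the library, so that levels can be compared between genes. Differences were fitted with limma, a linear model over all genes with moderated variances, and are given on the log2(FPKM + 0.1) scale with a standard error (SE). A gene is called where its p-value, adjusted by Benjamini-Hochberg over all genes tested, is below 0.05. The labels of the subsets were checked with Cxcr2, Csf3r, Mmp9 and Retnlg, which were high in every PMN-MDSC sample, and with Ccr2, Cx3cr1, F13a1 and Klf4, which were high in every Mo-MDSC sample. Of the 8 monocyte genes listed, 6 were called higher in Mo-MDSCs of WT mice than in PMN-MDSCs, Cd14 was called lower (log2 fold change -1.16) and Csf1r was not called (limma adjusted p = 0.578). Ly6g, the antigen of the PMN-MDSC sort, was not analysed here. The targeted genes did not check the knockout, since Cdkn1a stood at 5.55 to 8.52 FPKM in the libraries labelled DKO and at 6.46 to 8.18 in WT Mo-MDSCs, Cdkn2a stood below 1 FPKM in both, and the deleted parts of the genes are not given. Genes of other spleen cells were present in all groups, with summed FPKM of 8 red pulp macrophage genes at 7569 to 8531 in PMN-MDSCs, 4789 to 5788 in Mo-MDSCs of WT mice and 6011 to 8612 in those of DKO mice. Over the 9 samples the listed B-cell genes summed to 1115 to 1758 FPKM and the erythroid genes to 3091 to 7015. Dendritic cell genes summed to 949 to 1544 FPKM, eosinophil genes to 217 to 356 and T-cell genes to 18.5 to 36.3. The relative depth of the libraries, read from the smallest steps of low genes, ranged from 0.809 to 1.31.

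The stefin A genes lie within 299 kb of mouse chromosome 16 (GENCODE M21, GRCm38), and their coding sequences are close copies of one another. Stfa2l1 (chr16:36156811-36161953), Gm5483 (chr16:36184212-36188111) and Stfa1 (chr16:36276951-36285373) are on the plus strand. BC100530 (chr16:36359382-36367748), Stfa2 (chr16:36403992-36408457) and Stfa3 (chr16:36450537-36455392) are on the minus strand. Cstb is on chromosome 10 (chr10:78425669-78427622, plus strand) and Cst3 on chromosome 2 (chr2:148871722-148875692, minus strand). Each gene has 3 exons in the transcript used, and the coding length is 291 bases for Stfa1, Gm5483 and BC100530, 309 bases for Stfa2, Stfa2l1 and Stfa3, 294 bases for Cstb and 420 bases for Cst3.

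The middle coding exon carries the loop that inserts into the protease. It is given for the 6 stefin A genes and Cstb because it lets the copies be compared base by base, 5′ to 3′ on the coding strand, from the transcripts of GENCODE M21. Capitals mark the 15 bases that encode the loop.
Stfa2l1: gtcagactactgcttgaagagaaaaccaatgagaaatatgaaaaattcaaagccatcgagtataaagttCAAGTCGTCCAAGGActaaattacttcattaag
Stfa2: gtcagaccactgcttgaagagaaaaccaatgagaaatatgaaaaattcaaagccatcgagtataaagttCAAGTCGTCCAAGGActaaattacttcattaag
Gm5483: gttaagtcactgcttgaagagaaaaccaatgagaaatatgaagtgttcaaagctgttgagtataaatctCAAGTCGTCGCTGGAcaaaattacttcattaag
Stfa1: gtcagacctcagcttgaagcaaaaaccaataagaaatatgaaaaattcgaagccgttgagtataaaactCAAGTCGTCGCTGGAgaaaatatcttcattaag
BC100530: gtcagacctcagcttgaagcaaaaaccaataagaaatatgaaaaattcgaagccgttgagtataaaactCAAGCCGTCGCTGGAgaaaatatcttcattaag
Stfa3: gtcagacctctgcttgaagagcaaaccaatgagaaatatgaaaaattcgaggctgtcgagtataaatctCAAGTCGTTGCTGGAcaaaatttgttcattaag
Cstb: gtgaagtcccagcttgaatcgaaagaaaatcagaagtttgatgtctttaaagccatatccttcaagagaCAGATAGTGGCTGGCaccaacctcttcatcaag
These exons are 102 bases long in all 7 genes. Their positions are chr16:36159946-36160047 for Stfa2l1, chr16:36405130-36405231 for Stfa2, chr16:36186364-36186465 for Gm5483, chr16:36280466-36280567 for Stfa1, chr16:36364212-36364313 for BC100530, chr16:36452151-36452252 for Stfa3 and chr10:78426927-78427028 for Cstb. Stfa2l1 and Stfa2 differed at 1 of the 102 bases, outside the capitals. Stfa1 and BC100530 also differed at 1 base, which lies inside the capitals, in the codon between those for glutamine and valine. The other pairs of stefin A genes differed at 13 to 19 bases, and each of them differed from Cstb at 38 to 46.

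Over the whole coding sequence, identity among the 6 stefin A genes ran from 73.1% for Stfa1 with Stfa2l1 to 97.9% for Stfa1 with BC100530, and it was 96.4% for Stfa2 with Stfa2l1. Identity with Cstb was 52.1% to 60.2%, and with Cst3 37.3% to 39.4%. A read of 75 bases, the length sequenced here, could therefore fit more than 1 gene. Of the 75-base windows of BC100530 transcripts 22.4% occurred unchanged in Stfa1 or BC117090, of those of Gm5483 23.5% in 2010005H15Rik, and of those of Stfa2l1 7.83% in Stfa2 or Gm49652. The share was 9.15% for Stfa1, with BC100530, and 5.79% for Stfa2, with Stfa2l1. No window of Stfa3, Cstb or Cst3 was shared. Levels of the first 5 genes are uncertain for this reason. The share of windows does not bound the error, which also depends on the level of the gene that shares them. In PMN-MDSCs the mean level was 837 FPKM for Stfa2l1 and 23.1 FPKM for Stfa2. BC100530 also overlaps the antisense gene Gm15845 at its end.

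**Figure D1:**
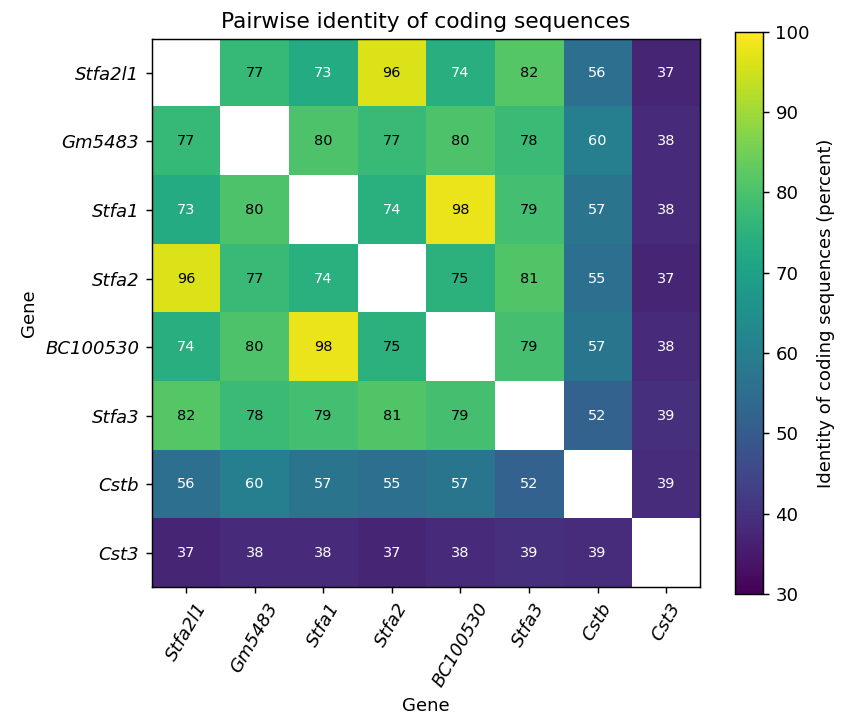
Identity of the coding sequences of each pair of genes, in percent of alignment columns, with rows and columns for the 8 genes and the colour scale from 30 to 100. The pairs Stfa1 with BC100530 and Stfa2 with Stfa2l1 stand above 96%, and Cst3 is below 40% with every other gene.

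Stfa2l1, a stefin A gene close to Stfa2, was the most abundant of the 6 stefin A genes in PMN-MDSCs. Its level was 795, 692 and 1023 FPKM in PMN-MDSC replicates 1 to 3, against 2.69, 1.08 and 7.93 in Mo-MDSCs of WT mice and 0.403, 6.49 and 1.11 in those of DKO mice. The PMN-MDSC samples did not overlap with any Mo-MDSC sample. Cstb also separated the WT subsets without overlap, and the share of all genes that do so was not counted. The highest Mo-MDSC values of Stfa2l1 were WT replicate 3 and DKO replicate 2. In WT Mo-MDSCs Stfa2l1 was lower by a log2 fold change of -8.11 (SE 0.62) on the log2(FPKM + 0.1) scale, with a limma adjusted p of 1.00e-04. In DKO Mo-MDSCs against PMN-MDSCs it was -9.02 (SE 0.79, limma adjusted p = 9.29e-05).

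Gm5483 was next in abundance. It stood at 424, 307 and 414 FPKM in PMN-MDSCs, at 2.25, 0.363 and 1.52 in WT Mo-MDSCs and at 0.405, 4.46 and 0.743 in DKO Mo-MDSCs. Again the PMN-MDSC samples lay apart from all 6 Mo-MDSC samples, and DKO replicate 2 was the highest of the latter. The fitted log2 fold change was -8.29 (SE 0.55, limma adjusted p = 5.74e-05) in WT Mo-MDSCs and -8.24 (SE 0.70, limma adjusted p = 7.77e-05) in DKO Mo-MDSCs, each against PMN-MDSCs.

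The 4 other stefin A genes were less abundant. Stfa1 measured 33.7, 38.3 and 65.7 FPKM in PMN-MDSCs, 1.76, 0 and 1.85 in Mo-MDSCs of WT mice and 0, 0.335 and 0.363 in those of DKO mice. BC100530, its nearest copy in sequence, measured 16.6, 12.1 and 22.7 FPKM in PMN-MDSCs, 0.396, 0.319 and 0.668 in Mo-MDSCs of WT mice and 0.712, 1.21 and 0 in those of DKO mice. Both genes were lower in every Mo-MDSC sample than in any PMN-MDSC sample. Their log2 fold changes in WT Mo-MDSCs against PMN-MDSCs were -5.95 (SE 1.09) for Stfa1, with a limma adjusted p of 0.00499, and -4.95 (SE 0.30) for BC100530, with a limma adjusted p of 3.94e-05.

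Stfa2 measured 30.2, 12.7 and 26.3 FPKM in PMN-MDSCs, was listed at 0 in all 3 WT Mo-MDSC samples and measured 0, 0.327 and 0 in DKO Mo-MDSCs. Stfa3 measured 13.4, 4.62 and 12.5 FPKM in PMN-MDSCs, 0.904, 0 and 0.763 in WT Mo-MDSCs and was listed at 0 in the 3 DKO samples. These genes also separated the subsets without overlap, and their PMN-MDSC replicate 2 was the lowest of its group for both. The share of all genes that separate the subsets without overlap was not counted. The log2 fold changes in WT Mo-MDSCs were -7.77 (SE 0.33, limma adjusted p = 1.17e-05) for Stfa2 and -4.39 (SE 0.90, limma adjusted p = 0.00791) for Stfa3. With all 3 WT Mo-MDSC values of Stfa2 at 0, that group had no spread, and the SE and p-value take none from it. At pseudocounts of 1 and 0.01 FPKM the log2 fold change of Stfa2 was -4.51 and -11.08. In DKO Mo-MDSCs against PMN-MDSCs the log2 fold changes of Stfa1, Stfa2, Stfa3 and BC100530 were between -7.34 and -5.14, with limma adjusted p-values of at most 0.00224.

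**Figure D2:**
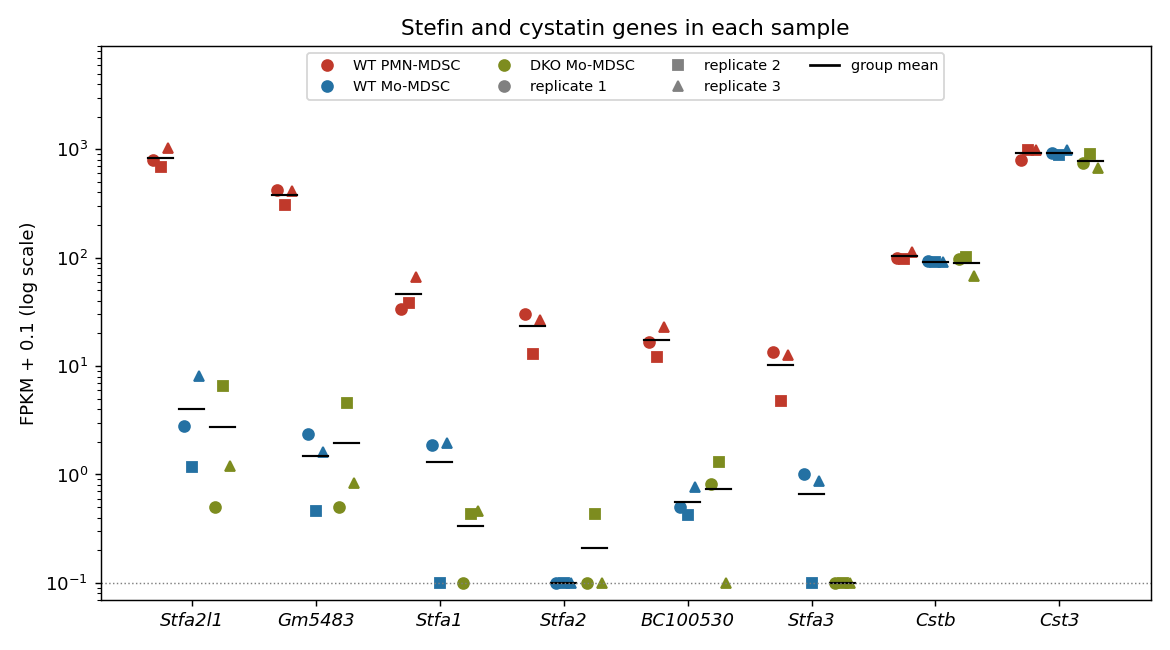
FPKM + 0.1 on a log axis for the 8 genes, with 1 point for each of the 9 samples, marker shapes for replicate numbers and black lines for group means. The dotted line is a value listed at 0. For each stefin A gene the 3 PMN-MDSC samples sit above all 6 Mo-MDSC samples, while the groups of Cstb and Cst3 lie close together.

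The stefin A values in Mo-MDSCs rested on very few reads. The FPKM values of each of these genes were whole multiples of a smallest step, to within 0.00721 of a step (tolerance 0.02) after allowing for relative depth, and 1 step was worth 0.302 to 0.452 FPKM in the Mo-MDSC samples. Stfa2l1 came to 5411 steps over the 3 PMN-MDSC samples, 30 over the WT and 23 over the DKO Mo-MDSC samples. Gm5483 came to 2429, 10 and 16 steps, Stfa1 to 307, 9 and 2, Stfa2 to 151, 0 and 1, BC100530 to 125, 4 and 6, and Stfa3 to 63, 4 and 0. A step is taken here for a read, and the intervals that follow cover counting error only.

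For groups listed at 0 the fitted fold changes, their SE and their p-values depend on the pseudocount. A floor of 3 steps per library gives a bound on the fold change instead. Stfa2 was at least 20.3-fold higher in PMN-MDSCs than in WT Mo-MDSCs, and Stfa3 at least 9.05-fold higher than in DKO Mo-MDSCs. Against DKO Mo-MDSCs, Stfa2 gave a ratio of 189 (exact 95% interval 33.5 to 7529) and Stfa1 a ratio of 193 (52.8 to 1597). These ratios rest on 1 and 2 steps in the DKO samples.

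Across all genes tested, 20.6% were called lower and 18.5% higher in Mo-MDSCs of WT mice than in PMN-MDSCs, and 21.9% lower and 17.4% higher in DKO Mo-MDSCs than in PMN-MDSCs. All 8 genes passed the minimum of 1 FPKM in 3 of 6 samples, and 6 of them, the stefin A genes, were called lower in both comparisons. However, 5 of the 8 reached 1 FPKM in fewer than 3 WT Mo-MDSC samples and passed through the PMN-MDSC samples, where they are high, so the count is a description. The median log2 fold change of the 6 stefin A genes was -6.86 in WT and -7.20 in DKO Mo-MDSCs, beside 0.01 and 0.02 over all genes tested. With Stfa2 at its bound the former became -5.45. The comparisons share the PMN-MDSC samples. None of the 8 genes was higher in WT Mo-MDSCs by a fold above 2 with an unadjusted p below 0.05, a combination met by 3.55% of all genes. Within replicates 2 and 3, whose library numbers adjoin, the 6 stefin A genes had log2 fold changes of -8.69 to -4.72 in WT Mo-MDSCs. In DKO Mo-MDSCs they were -8.22 to -5.53, and the genes were called by limma in both. An exact permutation test of 3 against 3 samples, two-sided, gave each stefin A gene p = 0.1, the smallest p this design allows. Between the WT subsets Cstb had the same p in this test, which therefore does not tell the stefin A genes from Cstb there.

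**Figure D3:**
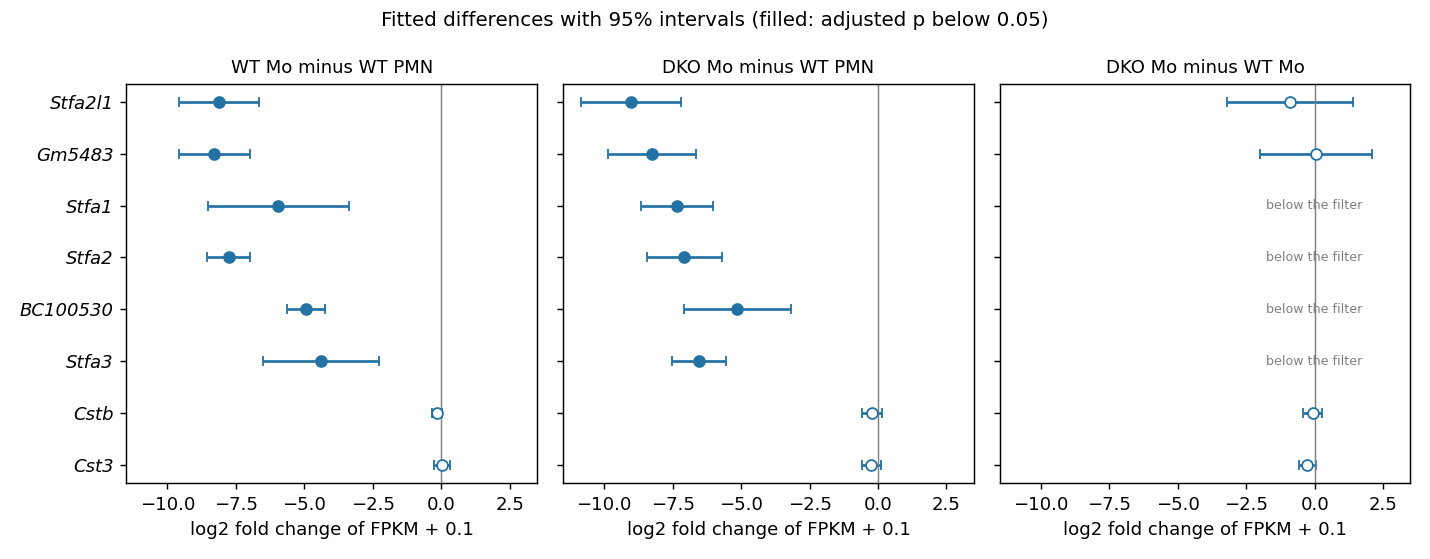
Fitted log2 fold changes of FPKM + 0.1 with 95% intervals for the 8 genes in the 3 comparisons, filled where the limma adjusted p was below 0.05. The stefin A genes lie between -4.39 and -9.02 in the comparisons with PMN-MDSCs, and every interval of Cstb and Cst3 includes 0.

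The levels of the 6 stefin A genes were also summed in each sample. The sum was 1314, 1067 and 1565 FPKM in PMN-MDSCs, 7.99, 1.76 and 12.7 in Mo-MDSCs of WT mice and 1.52, 12.8 and 2.22 in those of DKO mice. The group means were 1315 ± 249, 7.50 ± 5.50 and 5.52 ± 6.34 FPKM (SD, n = 3), and the PMN-MDSC mean was 175 times that of WT Mo-MDSCs. With the 4 further stefin A genes of the files added, the means were 1336, 7.58 and 5.79 FPKM. Within PMN-MDSCs the composition of the sum was similar in the 3 samples, with Stfa2l1 at 60.5%, 64.8% and 65.4% and Gm5483 at 32.3%, 28.8% and 26.5% of it in replicates 1 to 3. The 4 other genes together made up the small remainder, led by Stfa1 at 2.56% to 4.20%.

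In PMN-MDSCs the order of mean levels was Cst3, Stfa2l1, Gm5483, Cstb, Stfa1, Stfa2, BC100530 and Stfa3. The ranges of Cst3 and Stfa2l1 overlapped, as did those of Stfa2 with BC100530 and of BC100530 with Stfa3, while the other neighbours were apart in all 3 samples. Among all gene symbols Stfa2l1 ranked 129 to 156 in the PMN-MDSC samples, close to Cst3 at 109 to 147. In WT Mo-MDSCs Stfa2l1 ranked 7518 to 11325, and Cst3 97 to 105.

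Along the cluster, the level of the 6 stefin A genes in PMN-MDSCs fell from the Stfa2l1 side to the Stfa3 side except at Stfa2. The 4 further stefin A genes of the files, of which Gm5416 was highest at a mean of 18.0 FPKM, were not placed in this order. Mean FPKM was 837 ± 170 for Stfa2l1, 382 ± 64.8 for Gm5483, 45.9 ± 17.3 for Stfa1, 17.2 ± 5.32 for BC100530, 23.1 ± 9.18 for Stfa2 and 10.2 ± 4.85 for Stfa3 (SD, n = 3). The 3 genes of the plus strand were higher in every sample than the 3 of the minus strand. The ranges of the last 3 overlapped, but within each sample Stfa2 was the highest of them and Stfa3 the lowest. The order was not tested.

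**Figure D4:**
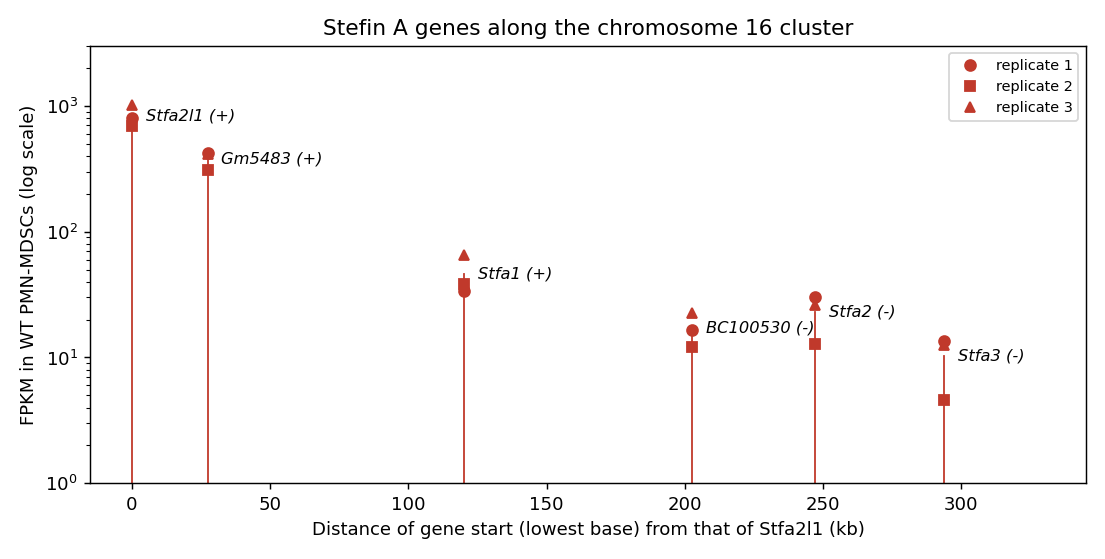
FPKM of the 6 stefin A genes in the 3 WT PMN-MDSC samples on a log axis, against the distance of each gene's lowest base from that of Stfa2l1 in kb, with lines up to the group mean and the strand in parentheses. Stfa2l1 and Gm5483 stand above 300 FPKM and the 3 genes on the minus strand below 31 FPKM.

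Sequence upstream of the start was given by RefSeq (GRCm38.p6) for 7 of the 8 genes, Cstb being without an entry, as windows from 250 bases before to 50 bases after the start. Gm5483 was matched as Cstdc4 through its RefSeq synonym, and BC100530 as Cstdc5 through its coordinates. The 100 bases before the start are printed for Stfa2l1 and Gm5483, the most abundant copies, and for Stfa3, the least abundant, 5′ to 3′ on the strand of the gene. Capitals mark TTTAAA, a motif picked after these sequences had been read.
Stfa2l1: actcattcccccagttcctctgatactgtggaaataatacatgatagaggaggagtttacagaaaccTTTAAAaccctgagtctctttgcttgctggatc
Gm5483: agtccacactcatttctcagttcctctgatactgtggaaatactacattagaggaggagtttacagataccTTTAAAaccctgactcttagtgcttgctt
Stfa3: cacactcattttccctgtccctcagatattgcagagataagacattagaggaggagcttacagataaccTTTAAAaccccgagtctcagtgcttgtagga
The stretches are chr16:36156711-36156810 for Stfa2l1, chr16:36184112-36184211 for Gm5483 and chr16:36455393-36455492 for Stfa3. TTTAAA, which reads the same on both strands, was found in all 6 stefin A windows and in 13.2% of 32851 windows of all genes. Its first base lay 29 to 33 bases before the start in 5 of the genes and 9 bases before it in BC100530. The TATA box TATAAA was in none of the 6 and in 13.6% of all windows, on either strand. GAGGAA, the core bound by PU.1, was in all 6 and in that of Cst3, beside 28.3% of all windows, and the longer AGAGGAAGT, which contains it, was in none, beside 1.00%. Of the motifs of C/EBP factors TTNNGCAA was in the windows of Stfa1 and BC100530, beside 10.8% of all, and TTGCGCAA, a narrower form of it, was in none, beside 0.183%. The windows of a gene family are copies of one another and do not count as separate observations.

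Within Mo-MDSCs the residual stefin A level was set beside genes of neutrophils measured in the same samples, as percent of their PMN-MDSC mean. Stfa2l1 stood at 0.321%, 0.129% and 0.948% in WT Mo-MDSC replicates 1 to 3 and at 0.0481%, 0.776% and 0.133% in DKO. Gm5483 stood at 0.589%, 0.0949% and 0.398% in WT and at 0.106%, 1.17% and 0.195% in DKO. The chemokine receptor gene Cxcr2 stood at 1.40%, 0.963% and 2.61% in WT and 0.783%, 1.36% and 0.754% in DKO. WT replicate 3 and DKO replicate 2 were thus the highest of their groups for both Stfa2l1 and Cxcr2, and also for BC100530. Gm5483 was highest in WT replicate 1, as was Stfa3 (8.88%), and Stfa1 was highest in DKO replicate 3 (0.791%). Stfa2 was above 0 only in DKO replicate 2. Among the neutrophil marker and granule genes given as such percentages, only Retnlg differed from Cxcr2 in these replicates. It was highest in WT replicate 2, at 2.66%, and in DKO replicate 1, at 0.831%. The part of remaining neutrophil-like cells in these values was not tested, and in bulk samples fewer cells of a type and less RNA per cell cannot be told apart.

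Several other neutrophil genes stood at a higher percentage of their PMN-MDSC mean. The granule protease gene Mmp9 was at a mean of 1.96% in WT and 1.09% in DKO Mo-MDSCs, Retnlg, which encodes a resistin-like protein, at 2.07% and 0.666%, and Csf3r, the G-CSF receptor, at 5.31% and 4.07%. Genes of the secondary granules were higher still, with Ltf (lactoferrin) at 59.3% and 20.7% and Ngp (a cystatin-related granule protein) at 70.5% and 23.9%. Stfa2l1 and Gm5483, at 0.466% and 0.361% in WT and 0.319% and 0.490% in DKO, were below each of these genes in the group means. This did not hold for the rest of the family or for every neutrophil gene. Stfa1, BC100530 and Stfa3 stood at 2.62%, 2.69% and 5.46% in WT Mo-MDSCs, above Cxcr2, Mmp9 and Retnlg, and BC100530 stood at 3.73% in DKO. Stfa2 was listed at 0 in WT and stood at 0.472% in DKO, where Stfa1 was at 0.507% and Stfa3 at 0. Cxcr1, a receptor gene close to Stfa2l1 in profile, had mean levels of 27.3 FPKM in PMN-MDSCs, 0.147 in WT and 0.0256 in DKO Mo-MDSCs. The difference between genes was not tested.

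**Figure D5:**
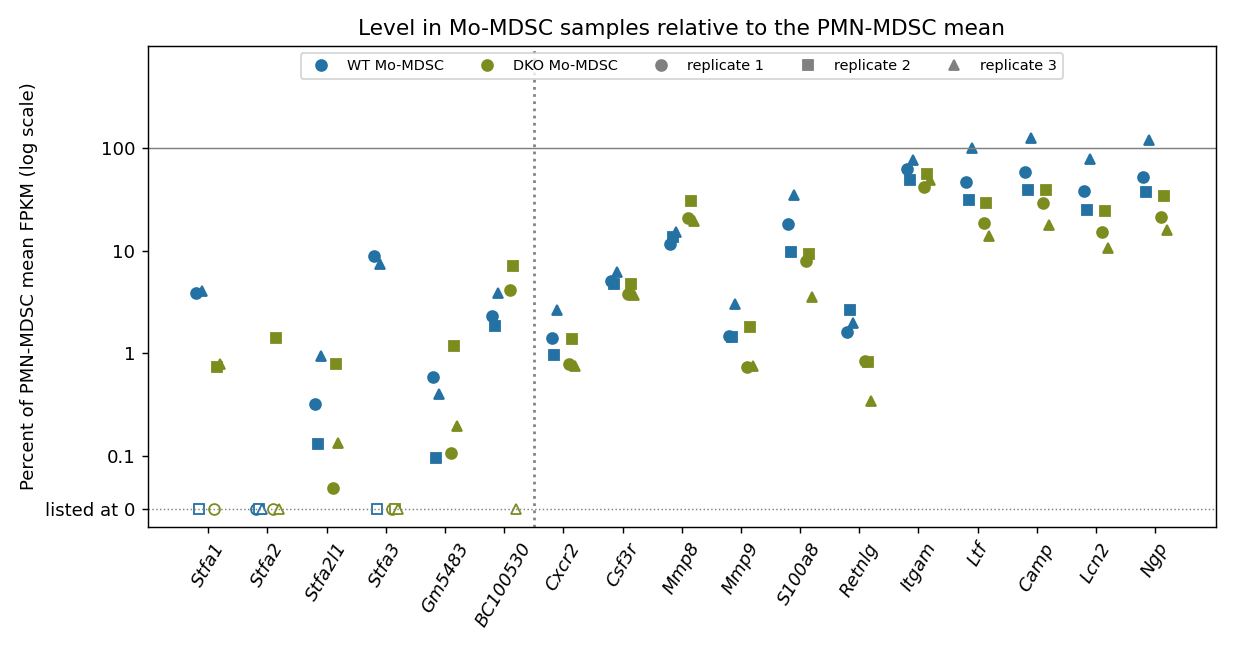
Level of the 6 stefin A genes (left of the dotted line) and of 11 neutrophil marker and granule genes in each Mo-MDSC sample, in percent of the PMN-MDSC mean on a log axis, with open markers for values listed at 0. Stfa2l1 and Gm5483 lie at or below 1.17%, Cxcr2 at 0.754% to 2.61%, and Ltf, Camp, Lcn2 and Ngp at 10.7% to 126%.

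Cstb, the cytosolic and nuclear inhibitor of cathepsins, stood near 100 FPKM in most samples. It measured 99.5, 98.2 and 112 FPKM in PMN-MDSCs, 93.4, 91.3 and 91.8 in Mo-MDSCs of WT mice and 97.9, 101 and 68.3 in those of DKO mice. The WT groups did not overlap, by a narrow margin, and DKO replicate 3 was the lowest of all samples. The log2 fold change in WT Mo-MDSCs was -0.16 (SE 0.08, 95% interval -0.34 to 0.02), which missed the threshold with a limma adjusted p of 0.139. Blocking on replicate number, the same difference had an SE of 0.05 and passed it, at a limma adjusted p of 0.0492. In DKO Mo-MDSCs against PMN-MDSCs the log2 fold change was -0.23 (SE 0.16, limma adjusted p = 0.276).

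Cst3, the secreted inhibitor cystatin C, was the most abundant of the 8 genes in all 3 groups by mean level. In PMN-MDSC replicates 1 and 3, however, Stfa2l1 was higher, at 795 and 1023 FPKM. Cst3 measured 789, 984 and 985 FPKM in PMN-MDSCs, 925, 879 and 990 in Mo-MDSCs of WT mice and 755, 910 and 678 in those of DKO mice. The groups overlapped. Between the WT subsets the log2 fold change was 0.02 (SE 0.12, 95% interval -0.26 to 0.30, limma adjusted p = 0.890). In DKO Mo-MDSCs against PMN-MDSCs it was -0.24 (SE 0.15, limma adjusted p = 0.249). The 8 red pulp macrophage genes summed to less in WT Mo-MDSCs than in either other group, without overlap. Of these 8 genes only Hmox1 was called between DKO and WT Mo-MDSCs (limma adjusted p = 0.0299). It stood at 1242 to 1266 FPKM in WT and 2233 to 2844 FPKM in DKO Mo-MDSCs, so the sum does not reflect all 8 genes alike. The part of macrophage RNA in the Cst3 level was not tested.

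Between the Mo-MDSCs of DKO and WT mice 4 of the 8 genes passed the minimum level, and none was called, beside 0.253% of all genes tested (29 of 11451) in either direction. None of the 4 had an unadjusted p below 0.05 in limma, beside 1719 of the 11451 genes tested. Stfa2l1 had a log2 fold change of -0.91 (SE 0.99, 95% interval -3.20 to 1.39, limma adjusted p = 0.687) and Gm5483 of 0.05 (SE 0.89, interval -2.01 to 2.11, limma adjusted p = 0.986). These intervals span several-fold changes in both directions, and a difference between the genotypes was not detectable with these samples. Samples of a group differed widely, with Stfa2l1 at 6, 3 and 21 steps in WT and 1, 19 and 3 steps in DKO replicates 1 to 3. Within replicates 2 and 3 the values were -0.13 for Stfa2l1 and 1.18 for Gm5483, and neither was called by limma. For Cstb it was -0.07 (SE 0.15, interval -0.42 to 0.28, limma adjusted p = 0.848) and for Cst3 -0.26 (SE 0.13, interval -0.57 to 0.04, limma adjusted p = 0.384). None of the 4 genes tested was lower by a fold below 0.75 with an unadjusted p below 0.05, which 4.43% of all genes tested were. For Stfa3, which did not reach the minimum level, the WT samples held 4 steps and the libraries labelled DKO 0, and a fit without the filter gave a log2 fold change of -2.15 and a limma adjusted p of 0.400 (unadjusted p = 0.0375). In that fit Stfa3 meets this rule of fold and unadjusted p.

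Genes with a profile over the 9 samples most like each gene were ranked among 11726 genes by the root mean square difference of centred log2(FPKM + 0.1) values. Nearest to Stfa2l1 were Gm5483 (0.663), Steap4 (0.899) and Cxcr1 (0.909), and nearest to Gm5483 were Stfa2l1, Stfa2 (0.820) and Dhrs9 (0.883). Nearest to Stfa2 were Gm10872 (0.470), the further stefin A gene Gm5416 (0.483) and Steap4 (0.700). For Stfa1 they were Dhrs9 (0.997), Stfa3 (1.00) and Cxcr1 (1.03), for Stfa3 Myl2 (0.810), Hdc (0.862) and Prok2 (0.903), and for BC100530 Il1r2 (0.649), Foxd4 (0.768) and Retn (0.788). Each of these neighbours was higher in mean level in PMN-MDSCs than in both Mo-MDSC groups.

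Cst3 and Cstb had much closer neighbours. For Cst3 they were the proteasome subunit gene Psmb2 (0.044), the GM-CSF receptor gene Csf2ra (0.047) and Pin4 (0.057), and for Cstb Thap1 (0.069), Ttc32 (0.073) and Rnf7 (0.079). Psmb2 stood at mean levels of 100.4, 106 and 89.6 FPKM in PMN-MDSCs, WT Mo-MDSCs and DKO Mo-MDSCs.

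The rest of the stefin A cluster held 4 further genes in the files, of which 2 passed the minimum level. Both were called lower than in PMN-MDSCs, beside 20.6% of all genes tested for WT and 21.9% for DKO Mo-MDSCs. They passed through the PMN-MDSC samples, where they are high, so the count is a description. Gm5416 (Csta3) measured 27.7, 13.2 and 13.1 FPKM in PMN-MDSCs and 0 in 5 of the 6 Mo-MDSC samples, with 0.777 in DKO replicate 2. 2010005H15Rik (Csta2), which shares windows with Gm5483, measured 2.14, 1.34 and 1.71 FPKM in PMN-MDSCs and 0.232 in 1 Mo-MDSC sample.

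Of 17 other cystatin genes in the files 7 were listed at 0 in every sample and 4 reached a group mean of 1 FPKM. Cst7, which encodes the lysosomal cystatin F, measured 1.17, 0.770 and 0.704 FPKM in PMN-MDSCs and 2.02, 1.43 and 1.70 in Mo-MDSCs of WT mice, which is a log2 fold change of 0.90 (SE 0.25, limma adjusted p = 0.0272). It stood at 0.959, 1.81 and 1.27 in DKO Mo-MDSCs, which overlapped with both WT groups. The cathelicidin gene Camp and Ngp, cystatin-related genes of neutrophil granules, spread widely within groups. Camp ranged from 1640 to 5888 FPKM in PMN-MDSCs. Ngp measured 4997, 2699 and 11179 FPKM in PMN-MDSCs, 3337, 2349 and 7617 in Mo-MDSCs of WT mice and 1358, 2155 and 996 in those of DKO mice, and its log2 fold change in WT Mo-MDSCs was -0.45 (SE 0.59, limma adjusted p = 0.587). Against PMN-MDSCs, Ngp in DKO Mo-MDSCs was lower at -1.90 (SE 0.50, limma adjusted p = 0.0187) and Camp at -1.67 (SE 0.46, limma adjusted p = 0.0229), the 2 of 4 cystatin genes tested that were called there, beside 21.9% of all genes tested. The liver-made cystatin Ahsg was listed at 0 in replicate 1 of all 3 groups and measured 1.17 to 2.70 FPKM in the others.

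The called differences of the cysteine proteases were at most 0.75 in size on the log2 scale. Of 11 cysteine protease genes 10 passed the minimum level. Of these, 3 were higher and 2 lower in Mo-MDSCs of WT mice than in PMN-MDSCs, beside 18.5% and 20.6% of all genes tested. Between DKO and WT Mo-MDSCs none was called by limma, and 0 had an unadjusted p below 0.05, beside 1719 of 11451 genes tested. Ctss (cathepsin S) measured 888, 860 and 832 FPKM in PMN-MDSCs and 1569, 1312 and 1474 in Mo-MDSCs of WT mice, which is a log2 fold change of 0.75 (SE 0.10, limma adjusted p = 0.00138). The groups did not overlap, and the share of all genes of which this holds was not counted. Ctsh and Ctsc were higher by 0.40 and 0.31 on the log2 scale, and Ctsb (cathepsin B) and Lgmn (legumain) were -0.41 and -0.31. The values of Ctsb and Lgmn are smaller in size than the shift of 0.45 that scaling to equal totals puts on the median gene, so that their direction depends on the scaling. In DKO Mo-MDSCs against PMN-MDSCs only Ctss was called, at 0.49 (SE 0.13, limma adjusted p = 0.0191).

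Among 28 genes of other myeloid protease inhibitors 18 passed the minimum level, of which 9 were lower and 3 higher in Mo-MDSCs of WT mice than in PMN-MDSCs, beside 20.6% and 18.5% of all genes tested. The list's median log2 fold change was -0.49, beside 0.01 for all genes tested. Slpi, an inhibitor of neutrophil serine proteases, measured 1124, 1516 and 1458 FPKM in PMN-MDSCs and 364, 500.3 and 380.1 in Mo-MDSCs of WT mice, which is a log2 fold change of -1.72 (SE 0.17, limma adjusted p = 0.000295). The log2 fold changes of the related genes Gm11428 (Wfdc17) and 1100001G20Rik (Wfdc21) were -1.93 and -1.94, and that of Serpinb8, a serpin gene, was 2.25 (SE 0.26, limma adjusted p = 0.000666). A row named Serpinb10-ps was higher by 3.37. Between DKO and WT Mo-MDSCs none of the 18 was called by limma, and 5 had an unadjusted p below 0.05, beside 1719 of 11451 genes tested. In DKO Mo-MDSCs against PMN-MDSCs 8 were lower and 2 higher, beside 21.9% and 17.4% of all genes tested, with the largest log2 fold changes at -3.54 for 1100001G20Rik, -2.34 for Gm11428, 2.29 for Serpinb8, 2.25 for the row Serpinb10-ps and -1.41 for Slpi.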

How the data were processed

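Stranded mRNA libraries of 9 MDSC samples were sequenced by the authors as 75-base single-end reads. The submitters' processing notes list TopHat2 2.0.13, Bowtie2 2.2.3, SAMtools 0.1.19 and Cuffnorm 2.2.1 with the build mm10, and the deposited values are FPKM for 23284 gene symbols in each sample. The annotation and the library scaling of Cuffnorm are not given in the sources used here. Total FPKM ran from 494252 to 916642 and the upper quartile of values above 0 from 22.0 to 24.5, and values were compared as deposited. Depth in reads is unknown, and relative depth was computed from the steps of genes below 0.5 FPKM.

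The 8 genes and the gene lists were chosen with earlier results of these data known. Groups and replicate numbers came from the labels. On the log2(FPKM + 0.1) scale, each pair of groups was fitted with limma 3.58.1 in R 4.3.3 (eBayes with a trend, two-sided, no covariates) over the genes that reached 1 FPKM in 3 or more of the 6 samples, and p-values were adjusted by Benjamini-Hochberg over all genes tested, with a call below 0.05. The script was tested on simulated data. Single genes were also tested by exact permutation. Deviations of same-numbered samples from their group means had r = 0.141 to 0.449 for the WT subsets and 0.100 to 0.343 for DKO and WT Mo-MDSCs. For DKO Mo-MDSCs and PMN-MDSCs r was -0.172 to 0.196. Samples of unlike number reached -0.011, 0.075 and 0.305 in these comparisons. The replicate numbers may therefore pair the samples in the first and second comparison, which was not tested apart from the library numbers. In the labels the library numbers of each replicate run consecutively over the 3 groups. Those of replicates 2 and 3 adjoin, and those of replicate 1 are lower. That replicates 2 and 3 form a later series is only an inference from these numbers.

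Named genes were the 8 genes, other stefins and cystatins with a group mean of at least 1 FPKM, up to 5 called genes of the largest change per list and comparison, at most 3 genes of a marker list by rule with others added after their values were seen, and the 3 genes nearest in profile. Older symbols in the files were matched through RefSeq synonyms. Coding exons and 75-base windows came from GENCODE M21 transcripts (GRCm38), read with Biopython 1.88, and promoter windows from RefSeq (GRCm38.p6). The inhibitor loop was located by its codons, since protein sequences were not used here. Alternatives were other pseudocounts (1 and 0.01 FPKM), filters, scalings, a joint fit, the replicate block, replicates 2 and 3 only, no trend, and leaving out each sample. The other steps used scipy 1.17.1, numpy 2.4.6 and pandas 2.3.3 in Python 3.11.15.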

Additional observations from a re-analysis of the deposited data

How the results depend on the processing

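The 6 stefin A genes kept their direction and their call against PMN-MDSCs in all 193 fits of an alternative that tested them, with limma adjusted p-values of at most 0.0423 and log2 fold changes from -2.78 to -11.08. A minimum of 1 FPKM in every sample tested fewer of the 8 genes and called 1 in WT and 0 in DKO Mo-MDSCs against PMN-MDSCs, where the main count was 6. The replicate block called 7, Cstb being added, and 6584 genes in place of 4492 between the WT subsets. It called 20 in place of 29 genes between DKO and WT Mo-MDSCs and 4855 in place of 4527 between DKO Mo-MDSCs and PMN-MDSCs, and changed no other call of the 8 genes.

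Scaling to equal totals shifted the median log2 fold change of all genes to 0.45, 0.14 and 0.61 in WT Mo-MDSCs against PMN-MDSCs, DKO against WT Mo-MDSCs and DKO Mo-MDSCs against PMN-MDSCs. It called 6790 genes (5853 higher, 937 lower, against 2121 and 2371 as deposited) between the WT subsets and 8441 (7521 higher, 920 lower, against 2004 and 2523) in the last comparison, where quantile normalization gave 2533 higher and 2011 lower. Under equal totals the mean stefin A sum in PMN-MDSCs was 1043 in place of 1315 FPKM. Cstb turned to 0.28, 0.087 and 0.37 under equal totals and to 0.16, 0.030 and 0.19 under quantile normalization. Cst3 became 0.47 between the WT subsets under equal totals, with a limma adjusted p of 0.0119, and turned to 0.36 (equal totals) and 0.30 (quantile) in DKO Mo-MDSCs against PMN-MDSCs. Under equal totals Cstb was called in both comparisons with PMN-MDSCs (limma adjusted p = 0.0388 and 0.0345) and Cst3 also in DKO Mo-MDSCs (0.0437). Relative to the shifted median, the equal-totals values of Cstb were lower in all 3 comparisons, and those of Cst3 were level with it between the WT subsets and lower in DKO Mo-MDSCs against PMN-MDSCs.

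With replicates 2 and 3 only, 2952 genes were called between the WT subsets and 7 between DKO and WT Mo-MDSCs, and Cst3 turned to -0.078 between the WT subsets. In DKO against WT Mo-MDSCs no filter gave 13 called genes and all 9 samples in 1 fit 51, and leaving out 1 sample gave 8 to 23, with 12 or fewer without each of DKO replicates 1 to 3 and WT replicates 1 and 3. Without WT Mo-MDSC replicate 2, where Stfa1 and Stfa3 were listed at 0, their log2 fold changes between the WT subsets were -4.53 and -3.32 in place of -5.95 and -4.39. Leaving out 1 sample moved Cst3 between the WT subsets from -0.082 (without PMN-MDSC replicate 1) to 0.077, with -0.021 without WT Mo-MDSC replicate 3. Between DKO and WT Mo-MDSCs it moved Gm5483 from -0.89 (without DKO replicate 2) to 0.70, with -0.64 without WT replicate 2, Stfa2l1 from -1.93 (without DKO replicate 2) to -0.078 (without DKO replicate 1), where all samples gave -0.91, and Cstb from -0.17 to 0.11 (without DKO replicate 3). None of these leave-one-out values of Cst3, Gm5483, Stfa2l1 and Cstb passed the threshold, and their causes were not tested. Low step counts limit every stefin A value in Mo-MDSCs.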

Other observations

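Some genes of the cystatin and protease lists separated replicate 1, which has the lower library numbers, from replicates 2 and 3 in all 3 groups. Ahsg, Hrg and Kng1, cystatins of blood plasma that are made by the liver, were listed at 0 in the 3 replicate 1 samples and were above 0 in the 6 others, where Kng1 stood at 0.151 to 0.905 FPKM. Ctsk, which encodes cathepsin K of bone-resorbing cells, measured 3.22, 2.17 and 2.21 FPKM in replicate 1 of PMN-MDSCs, WT Mo-MDSCs and DKO Mo-MDSCs, and 0.179 to 0.470 FPKM in the other samples. In PMN-MDSCs replicate 1 of Stfa2l1, at 795 FPKM, lay between replicates 2 and 3, as did that of BC100530, while replicate 1 was the highest for Gm5483, Stfa2 and Stfa3 and the lowest for Stfa1. The cause of the separation was not tested.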
